A study of Mus musculus with 6 samples.

Results

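The genes described here are 45 lysosomal genes other than the cathepsins: the soluble hydrolases and their cofactors, the proteins of the lysosomal membrane, the vacuolar proton pump and the transcription factors Tfeb and Tfe3. They were taken from a fixed list of gene symbols matched to the Ensembl identifiers of the deposited counts table. All 45 were found, each with 1 identifier, among 46983 identifiers, and all 45 passed the filter on low counts that left 16115 genes to test. The RNA sequenced was from bone marrow derived macrophages, cells grown from mouse femur marrow for 7 days with 20% L929 conditioned medium, a source of the macrophage growth factor, and 10% serum. Both groups were of strain C57BL/6 and received no treatment. The 3 WT libraries came from wild-type mice and the 3 AEG-1 KO libraries from AEG-1 knockout mice. The gene Mtdh encodes AEG-1, short for astrocyte elevated gene-1. The labels used here give neither the deleted part of the gene, nor the age of the animals, nor whether the replicates were separate animals or cultures. The p-values therefore describe only how these libraries vary, and that variation may be technical.

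Lysosomes are acidic compartments in which macrophages break down what they have engulfed and what autophagy delivers. The vacuolar ATPase, or V-ATPase, pumps protons through its membrane sector V0, driven by ATP hydrolysis in the peripheral sector V1. The acid activates hydrolases that cleave glycans, lipids and proteins, and membrane proteins shield the wall, export the products and sort new enzymes. Inherited loss of many of these genes causes lysosomal storage diseases. The MiT transcription factors, Tfeb and Tfe3 among them, are known to bind CACGTG-containing sites near lysosomal genes and to be held in the cytoplasm by mTORC1 in fed cells.

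Library totals ran from 42548170 to 58947230 counts. Levels are given as CPM, reads scaled to library size with TMM factors. Mtdh had 11560 to 14849 reads in the WT libraries and 15 to 22 in the AEG-1 KO libraries, in accord with every label. Macrophage markers were abundant: Lyz2 had a WT mean of 9743 CPM and Adgre1, which encodes F4/80, 4605 CPM. Among 10 lymphocyte markers the WT means ran from 0.0057 CPM (Cd3g) to 11.2 CPM (Cd4) and 35.5 CPM (Cd79b). With edgeR's quasi-likelihood (QL) test and Benjamini-Hochberg adjustment, called at 0.05, 6.35% of the 16115 genes passed, of which 3.31% of genes rose and 3.04% fell in AEG-1 KO, and the libraries of the 2 groups did not overlap in 26.8%. The median log2 fold change of all tested genes was 0.01. Since the lysosomal genes are abundant, with a median of 228 CPM against 14.7 CPM over all tested genes, the same shares were taken over the 768 genes at or above that median, a set chosen after the values were seen. Of these, 19.5% passed the test, 8.46% higher and 11.1% lower, and the groups did not overlap in 45.4%.

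The lysosomal genes differed widely in level in WT macrophages. Levels between genes were compared as CPM per kilobase of annotated exon. That length joins the exons of all annotated transcripts of a gene, for example 5438 nucleotides for Npc2. It can exceed the length of the transcript present, so the order of genes below depends on it. Psap, the precursor of the saposins that present sphingolipids to their hydrolases, had the highest level of the 45, 4527 ± 329 CPM per kb (SD, n = 3). Next came the membrane glycoprotein genes Lamp1, at 734 ± 8.91, and Cd68, at 661 ± 52.9, then Grn, the progranulin gene, at 604 ± 47.8, Laptm5, at 488 ± 38.3, and Hexa, the alpha subunit gene of beta-hexosaminidase, at 407 ± 12.9 CPM per kb. The SD ranges of Cd68 and Grn overlapped, as did those of Npc2 and Atp6v1b2, both at 147 CPM per kb. The subunit and accessory genes of the proton pump ranged from 15 CPM per kb (Atp6v1h) to 147 (Atp6v1b2). At the low end were Smpd1, the acid sphingomyelinase gene, at 6.93 ± 0.494 CPM per kb, and Tfeb at 3.33 ± 0.704.

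**Figure D1:**
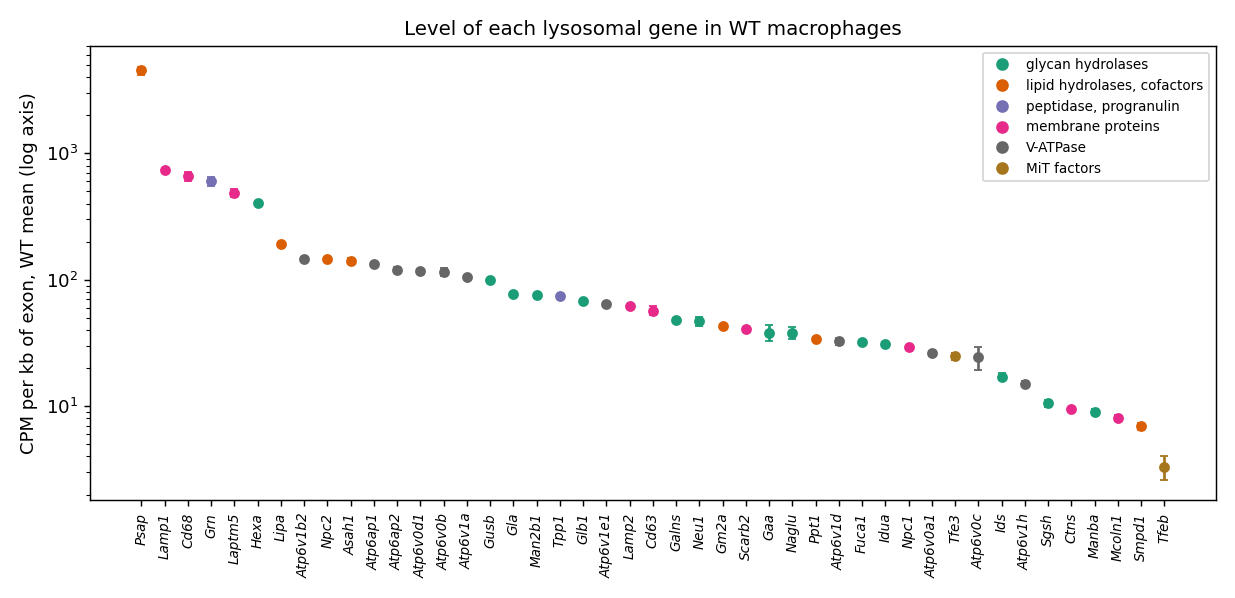
Mean CPM per kilobase of exon in the 3 WT libraries (points, log axis; bars are the SD, n = 3) for the 45 lysosomal genes, ordered by level and coloured by role. Psap stands at 4527 and Tfeb at 3.33 CPM per kb, with V-ATPase genes between 15 and 147.

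The letters CACGTG, which read the same on both strands, were sought in RefSeq promoter windows (GRCm38.p6) from 250 bases before to 50 bases after each annotated start. Of the 45 genes, 40 had a window; Asah1, Atp6v1b2, Atp6v1h, Galns and Npc1 had none in the table used. CACGTG was in the windows of 10 of the 40 genes (25%) and in those of 8.09% of all 27025 genes in the table. The longer palindrome TCACGTGA, which contains CACGTG, was in 4 of the 40 (10%) and in 1.12% of all genes. The upstream sequences of 6 carriers are shown, from the glycan hydrolases, the membrane proteins and the V-ATPase. Each CACGTG, and a T before or an A after it, is in capitals, 5′ to 3′ on the strand of the gene.
Sgsh, glycan hydrolase, chr11:119355511-119355569, minus strand: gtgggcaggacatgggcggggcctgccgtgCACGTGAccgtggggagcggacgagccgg
Gla, glycan hydrolase, chrX:134601164-134601255, minus strand: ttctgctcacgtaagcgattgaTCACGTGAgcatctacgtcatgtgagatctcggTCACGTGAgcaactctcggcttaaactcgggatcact
Lamp1, membrane protein, chr8:13159070-13159160, plus strand: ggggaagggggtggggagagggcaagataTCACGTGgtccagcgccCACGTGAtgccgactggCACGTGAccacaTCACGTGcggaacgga
Mcoln1, membrane channel, chr8:3500418-3500509, plus strand: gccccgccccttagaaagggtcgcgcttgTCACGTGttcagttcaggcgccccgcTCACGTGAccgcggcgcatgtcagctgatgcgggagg
Atp6v1a, V-ATPase, chr16:44139355-44139420, minus strand: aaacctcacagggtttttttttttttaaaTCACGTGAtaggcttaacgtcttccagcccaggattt
Atp6v0b, V-ATPase, chr4:117887330-117887395, minus strand: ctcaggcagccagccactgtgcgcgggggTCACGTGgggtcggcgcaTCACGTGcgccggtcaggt
Lamp1 held 4 copies, the nearest beginning 15 bases before its start, and Gla, Mcoln1 and Atp6v0b held 2 each. The other carriers were Atp6v0d1, Gaa, Glb1 and Naglu. No lipid hydrolase or cofactor gene with a window was a carrier, nor were Tpp1, Grn, Tfeb or Tfe3. Of the 10 carriers, only Sgsh passed the test between genotypes, with a median log2 fold change of 0.09 over the 10. Of the 30 genes whose window held no CACGTG, 11 passed, with a median of 0.13. Upstream here means before the RefSeq start. The GENCODE gene positions used elsewhere place the Atp6v1a stretch, and part of those of Sgsh, Mcoln1 and Atp6v0b, inside the gene. A match of letters is a description of the sequence and not evidence of binding.

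Setting AEG-1 KO beside WT macrophages asked how the transcripts of these genes differ without AEG-1. Slight rises in AEG-1 KO passed the test in 5 of 7 lipid hydrolases and cofactors, 2 of 14 glycan hydrolases, 4 of 9 membrane proteins, the peptidase Tpp1 and 1 of 11 proton pump genes. Of the 45 genes, 13 rose, 1 fell and 31 missed the threshold (edgeR QL test), so 31.1% were called against 6.35% of all tested genes and 19.5% of the abundant ones. The rises ranged from a log2 fold change of 0.15 (Npc2) to 0.33 (Scarb2), or 1.11-fold to 1.26-fold, and the fall, in Cd63, was 0.26 on the log2 scale. The median log2 fold change over the 45 was 0.12, and 33 of the 45 lay above 0. All 3 AEG-1 KO libraries lay above all 3 WT libraries in 25 genes and below them in 2, and the groups overlapped in 18, where 13.9% of all tested genes lay above and 12.9% below. The count called rested on all libraries: it was 8, 2 and 9 without WT replicates 1, 2 and 3, and 4, 1 and 2 without AEG-1 KO replicates 1, 2 and 3. Scarb2 was the gene called in each of those 6 fits, and the other 13 lost their call in at least 1. Other scalings and filters also ended calls near the threshold: upper-quartile scaling those of Asah1, Npc2, Tpp1, Lamp2 and Atp6ap2, RLE scaling those of Man2b1, Asah1, Tpp1 and Npc2, and no filter on low counts those of Ctns, Asah1 and Tpp1. In bulk RNA, a difference in the number of cells of a type and one in RNA per cell cannot be told apart.

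**Figure D2:**
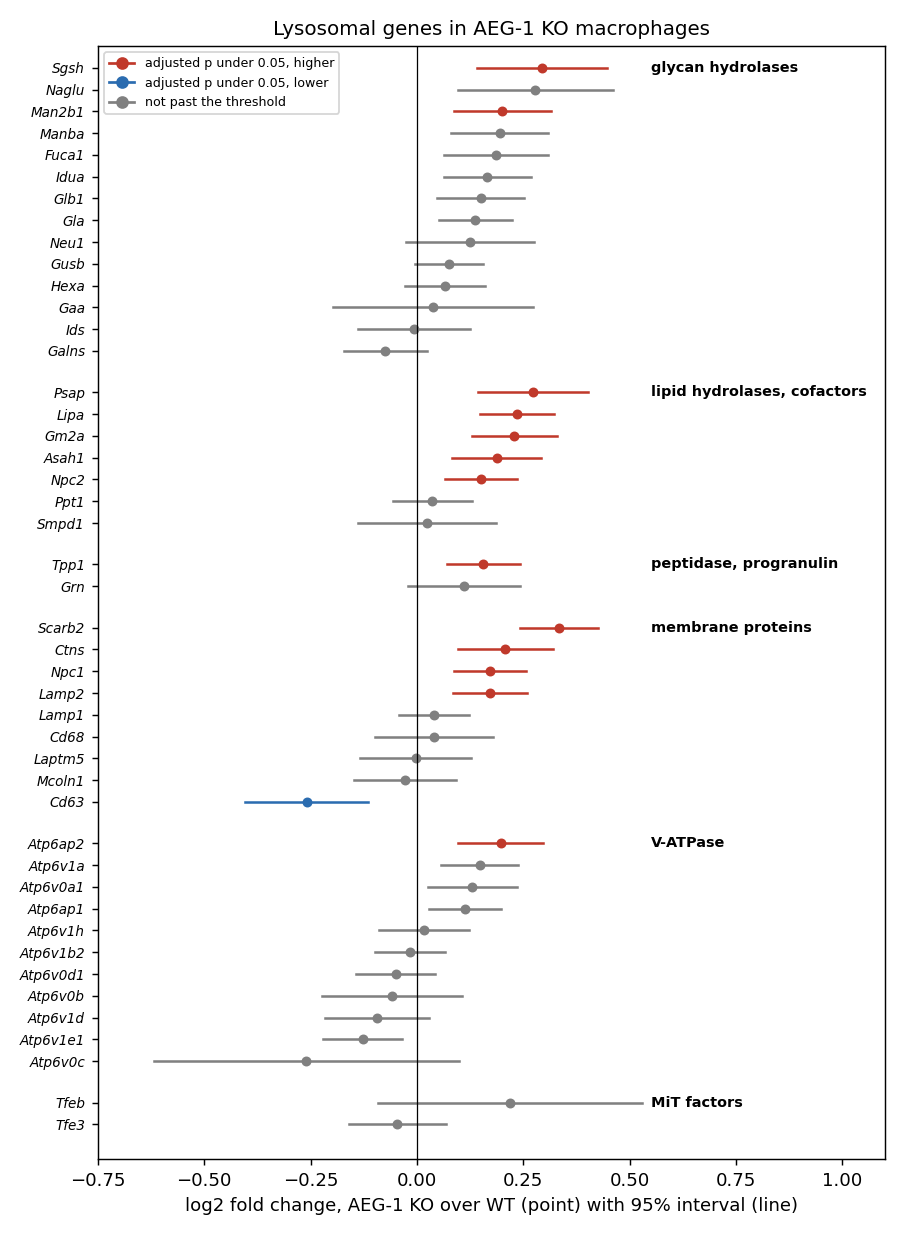
Log2 fold change of AEG-1 KO over WT (points) with its 95% interval (lines) for the 45 genes by role, in red where higher and in blue where lower at an QL adjusted p under 0.05, grey otherwise. The red points lie between 0.15 (Npc2) and 0.33 (Scarb2), and 1 of the 11 V-ATPase genes is red.

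Among the genes of lipid breakdown 5 of 7 rose, none fell, and all 7 had log2 fold changes above 0, with a median of 0.19. Psap (ENSMUSG00000004207, GRCm38 chromosome 10, 60277627 to 60302597) was at 13130, 12730 and 11410 CPM in WT replicates 1 to 3 and at 14640, 14830 and 15550 CPM in AEG-1 KO replicates 1 to 3. The groups did not overlap, and WT replicate 3 was the lowest library. Its log2 fold change was 0.27 ± 0.06 (SE; QL adjusted p = 0.024). Lipa (chromosome 19, 34492318 to 34527474), the acid lipase that cleaves cholesteryl esters and triglycerides, was at 1270, 1327 and 1333 CPM in WT against 1529, 1524 and 1572 CPM in AEG-1 KO. Its libraries were tightly grouped within each genotype, and its log2 fold change was 0.24 ± 0.04 (SE; QL adjusted p = 0.00806). Gm2a (chromosome 11, 55098115 to 55113029), the activator that lifts ganglioside GM2 to beta-hexosaminidase, was at 177, 182 and 171 CPM in WT against 200, 214 and 208 CPM in AEG-1 KO. It rose by a log2 fold change of 0.23 ± 0.04 (SE; QL adjusted p = 0.0168).

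Asah1 (chromosome 8, 41340197 to 41374773), the acid ceramidase, was at 451, 490 and 499 CPM in WT against 542, 546 and 551 CPM in AEG-1 KO, with a log2 fold change of 0.19 ± 0.05 (SE; QL adjusted p = 0.0461). Npc2 (chromosome 12, 84754562 to 84773152), the soluble carrier that hands cholesterol to the membrane protein Npc1, was at 805, 810 and 786 CPM in WT against 892, 870 and 903 CPM in AEG-1 KO, with a log2 fold change of 0.15 ± 0.04 (SE; QL adjusted p = 0.0471). In both genes every AEG-1 KO library was above every WT library. Smpd1 and Ppt1, the thioesterase that removes palmitate from proteins, did not pass the test; their 95% intervals of the log2 fold change were -0.14 to 0.19 and -0.06 to 0.13. The call of Lipa was lost without AEG-1 KO replicate 2 (QL adjusted p = 0.0549). Psap lost it without WT replicate 2 or AEG-1 KO replicates 1, 2 or 3 (QL adjusted p = 0.0622, 0.0521, 0.0868 and 0.0716), Gm2a without WT replicate 2 or AEG-1 KO replicates 2 or 3 (QL adjusted p = 0.0505, 0.104 and 0.0557), Asah1 without any library except WT replicate 3 (QL adjusted p from 0.11 to 0.194), and Npc2 without each library in turn (QL adjusted p from 0.0922 to 0.148).

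Among 14 glycan hydrolases, 2 rose, 12 missed the threshold and none fell, with a median log2 fold change of 0.14. The share called was 14.3%, above the 6.35% of all tested genes but below the 19.5% of the abundant ones. Sgsh (chromosome 11, 119343425 to 119355536), the sulfamidase of heparan sulfate breakdown, was at 48.3, 48.7 and 43 CPM in WT against 53.4, 57.3 and 61.1 CPM in AEG-1 KO. Its log2 fold change was 0.29 ± 0.07 (SE; QL adjusted p = 0.0356). Man2b1 (chromosome 8, 85083270 to 85098282), the acid alpha-mannosidase, was at 620, 623 and 571 CPM in WT against 678, 676 and 730 CPM in AEG-1 KO, a log2 fold change of 0.20 ± 0.05 (SE; QL adjusted p = 0.0482). In neither gene did the groups overlap. Man2b1 lost its call without each library in turn (QL adjusted p from 0.0597 to 0.136), and Sgsh without WT replicates 2 or 3 or AEG-1 KO replicates 2 or 3 (QL adjusted p = 0.0798, 0.0543, 0.123 and 0.102). The share called depended on the fit. Once a smooth trend across exon length and GC was taken out, 8 of the 14 were called, all higher. In that fit 997 of the 16115 tested genes were higher and 1329 lower.

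In 7 further glycan hydrolases every AEG-1 KO library lay above every WT library although the test was not passed. With the called genes, that order held for 9 of the 14, and for 13.9% of all tested genes and 18.2% of the abundant ones. Naglu, which removes N-acetylglucosamine from heparan sulfate, was at 111, 103 and 90.1 CPM in WT against 113, 124 and 132 CPM in AEG-1 KO (log2 fold change 0.28, QL adjusted p = 0.078). DESeq2 called it, and Manba, described next. Manba (beta-mannosidase), Fuca1 (alpha-fucosidase) and Idua (alpha-iduronidase) had log2 fold changes of 0.19, 0.19 and 0.17 (QL adjusted p = 0.0556, 0.0795 and 0.0635). Glb1 (beta-galactosidase), Gla (alpha-galactosidase) and Gusb (beta-glucuronidase) had 0.15, 0.14 and 0.07 (QL adjusted p = 0.0888, 0.0653 and 0.265). In Gla the 3 AEG-1 KO libraries were nearly level, at 275 to 277 CPM, above 245 to 256 CPM in WT. With the length and GC trend taken out, all of these 7 except Gusb were called higher (QL adjusted p from 0.0011 to 0.0193).

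The other 5 glycan hydrolases overlapped between genotypes. Hexa was at 784 to 833 CPM in WT against 823 to 869 CPM in AEG-1 KO, and Neu1, the sialidase, at 160 to 188 and 180 to 201 CPM. Gaa, which digests glycogen, varied more among WT libraries, at 206, 189 and 153 CPM, and had a 95% interval of -0.20 to 0.27 on the log2 scale. Ids (iduronate sulfatase) and Galns (a sulfatase of keratan sulfate) had intervals of -0.14 to 0.12 and -0.17 to 0.02.

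Tpp1 (chromosome 7, 105744811 to 105752235), a peptidase that trims tripeptides, was at 394, 381 and 379 CPM in WT against 423, 435 and 428 CPM in AEG-1 KO. The groups did not overlap, and the log2 fold change was 0.16 ± 0.04 (SE; QL adjusted p = 0.0436), a call lost without each library in turn (QL adjusted p from 0.0676 to 0.213). Grn was at 2197, 2190 and 1906 CPM in WT against 2219, 2240 and 2336 CPM in AEG-1 KO. Its AEG-1 KO libraries were all above WT, by a margin smaller than the spread among the WT libraries, and it did not pass the test (log2 fold change 0.11, QL adjusted p = 0.311).

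Of the 9 membrane proteins, 4 rose, 1 fell and 4 missed the threshold, with a median log2 fold change of 0.04. Scarb2 (ENSMUSG00000029426, chromosome 5, 92441314 to 92506833), the LIMP-2 protein that carries glucocerebrosidase to lysosomes, was at 249, 260 and 263 CPM in WT replicates 1 to 3 and 323, 333 and 318 CPM in AEG-1 KO replicates 1 to 3. The gap between the groups was wider than the range within either. Its log2 fold change was 0.33 ± 0.04 (SE; QL adjusted p = 0.00178), and the adjusted p without 1 library ran from 0.00234 to 0.0214.

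Ctns (chromosome 11, 73183596 to 73199042), the cystine exporter, was at 32.6, 32 and 31.5 CPM in WT against 36.1, 36.6 and 38.3 CPM in AEG-1 KO (log2 fold change 0.21 ± 0.05 SE, QL adjusted p = 0.0405). Npc1 (chromosome 18, 12189692 to 12236400), the cholesterol transporter that works with Npc2, was at 329, 340 and 331 CPM in WT against 373, 373 and 380 CPM in AEG-1 KO (log2 fold change 0.17 ± 0.04 SE, QL adjusted p = 0.0269). Lamp2 (chromosome X, 38401357 to 38456454), a wall glycoprotein also needed for autophagy, was at 589, 579 and 609 CPM in WT against 670, 676 and 656 CPM in AEG-1 KO (log2 fold change 0.17 ± 0.04 SE, QL adjusted p = 0.0318). None of the 3 genes overlapped between genotypes. Ctns and Npc1 lost their calls without each library in turn (QL adjusted p from 0.0702 to 0.151 and from 0.0539 to 0.136), and Lamp2 without any library except WT replicate 3 (QL adjusted p from 0.0841 to 0.193). Lamp2 also lost its call once a smooth trend across exon length and GC was taken out (QL adjusted p = 0.11).

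Cd63 (chromosome 10, 128900989 to 128912822), a tetraspanin of late endosomes and lysosomes, went the other way. It was at 197, 230 and 203 CPM in WT against 174, 167 and 185 CPM in AEG-1 KO, with every AEG-1 KO library below every WT library (log2 fold change -0.26 ± 0.06 SE, QL adjusted p = 0.0474). The call was lost without WT replicate 2, its highest library (QL adjusted p = 0.152), and without AEG-1 KO replicates 1, 2 or 3 (QL adjusted p = 0.124, 0.172 and 0.0512). Its value is uncertain because it has a near-identical stretch in common with transcripts of 28 other genes. Among them the pseudogene Cd63-ps, named after its values were seen, was at 63.5 to 71.9 CPM in WT against 65.2 to 67.6 CPM in AEG-1 KO and did not pass the test (QL adjusted p = 0.723).

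Lamp1, the most abundant of these membrane proteins per length, was at 1957, 1991 and 1945 CPM in WT against 1996, 2018 and 2047 CPM in AEG-1 KO, with a 95% interval of the log2 fold change of -0.04 to 0.12. Cd68, a macrophage glycoprotein, Laptm5, which sorts receptors for breakdown, and Mcoln1, the calcium channel TRPML1, overlapped between genotypes. Their intervals were -0.10 to 0.18, -0.13 to 0.13 and -0.15 to 0.09.

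**Figure D3:**
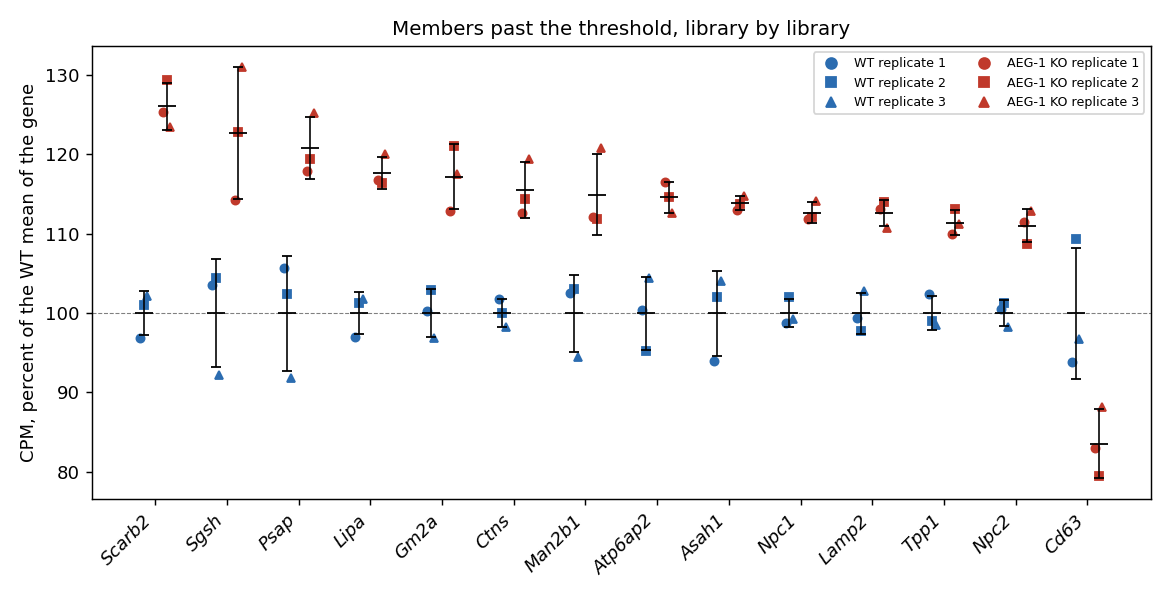
CPM of the 14 genes past the threshold in each library, as percent of the WT mean of the gene (symbols; dash and bar are the mean and SD, n = 3), with WT in blue and AEG-1 KO in red. In Scarb2 the AEG-1 KO libraries sit at 123% to 129%, in Cd63 at 79.5% to 88.2%, and in none of the 14 do the groups overlap.

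Of the 11 genes of the proton pump 1 rose, 10 missed the threshold and none fell, so 9.09% were called, near the 6.35% of all tested genes and below the 19.5% of the abundant ones. Of the 11 genes 5 lay above 0 and the median log2 fold change was -0.02. The gene that rose was Atp6ap2 (chromosome X, 12587801 to 12617049), an accessory protein also known as the prorenin receptor. It was at 315, 299 and 327 CPM in WT against 365, 359 and 353 CPM in AEG-1 KO, without overlap (log2 fold change 0.20 ± 0.04 SE, QL adjusted p = 0.0332). The call was lost without any library except WT replicate 3 (QL adjusted p from 0.0813 to 0.169). The other accessory gene, Atp6ap1, was at 393 to 412 CPM in WT against 435 to 440 CPM in AEG-1 KO (log2 fold change 0.11, QL adjusted p = 0.119). With the length and GC trend taken out, 3 of the 11 pump genes were called higher and 2 lower. Atp6ap1 was among the higher (QL adjusted p = 0.0398).

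Of the 5 genes of the ATP-hydrolysing V1 sector, 0 passed the edgeR test and 0 passed DESeq2, with 2 at an unadjusted p under 0.05 in each, 1 in each direction. Atp6v1a, the catalytic subunit, was at 623, 625 and 655 CPM in WT against 709, 713 and 686 CPM in AEG-1 KO, without overlap (log2 fold change 0.15, QL adjusted p = 0.0625, and 0.0484 without WT replicate 3). Atp6v1e1, of the peripheral stalk, had the opposite sign without overlap, at 258, 267 and 275 CPM in WT against 248, 241 and 243 CPM in AEG-1 KO (log2 fold change -0.13, QL adjusted p = 0.104). Atp6v1b2, Atp6v1d and Atp6v1h, encoding a nucleotide-binding, a central stalk and a regulatory subunit, overlapped between genotypes, with 95% intervals of -0.10 to 0.07, -0.22 to 0.03 and -0.09 to 0.12. With the length and GC trend taken out, Atp6v1a was called higher, and Atp6v1e1 and Atp6v1d lower (QL adjusted p = 0.0104, 0.0194 and 0.0362).

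Of the 4 genes of the membrane sector V0, 0 passed the edgeR test and 0 passed DESeq2, with 1 at an unadjusted p under 0.05 in each. That gene was Atp6v0a1, of the proton channel's large subunit, at 164 to 177 CPM in WT against 183 to 193 CPM in AEG-1 KO (log2 fold change 0.13, QL adjusted p = 0.141). Atp6v0b and Atp6v0d1 had 95% intervals of -0.22 to 0.10 and -0.14 to 0.04. Atp6v0c, which encodes the main ring protein, was among the most variable of the 45, at 96, 88.5 and 63.8 CPM in WT against 66.1, 58.1 and 83.3 CPM in AEG-1 KO. Its interval of -0.62 to 0.10 leaves a change of either sign undetermined. The pseudogene Atp6v0c-ps2, named after its values were seen, shares a near-identical stretch with it and was at 53.1, 47.5 and 43.8 CPM in WT against 53.2, 58.8 and 61.2 CPM in AEG-1 KO, and how reads were divided between them was not tested.

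The levels of each class were also summed in each library. The lipid class summed to 15980, 15690 and 14350 CPM in WT against 17950, 18140 and 18940 CPM in AEG-1 KO, most of it Psap. The glycan hydrolases summed to 3209 to 3428 CPM in WT against 3525 to 3719 CPM in AEG-1 KO. The membrane proteins were at 5878 to 6302 and 6269 to 6488 CPM, which overlap. The proton pump summed to 3371 to 3420 and 3476 to 3502 CPM, without overlap and with a ratio of means of 1.03. Without Psap, the other 44 genes summed to 18520 ± 534 CPM in WT against 19760 ± 319 CPM in AEG-1 KO (SD, n = 3), a ratio of 1.07. WT replicate 3 was the lowest library in each of these sums; without it the median log2 fold change of the 45 genes was 0.09.

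**Figure D4:**
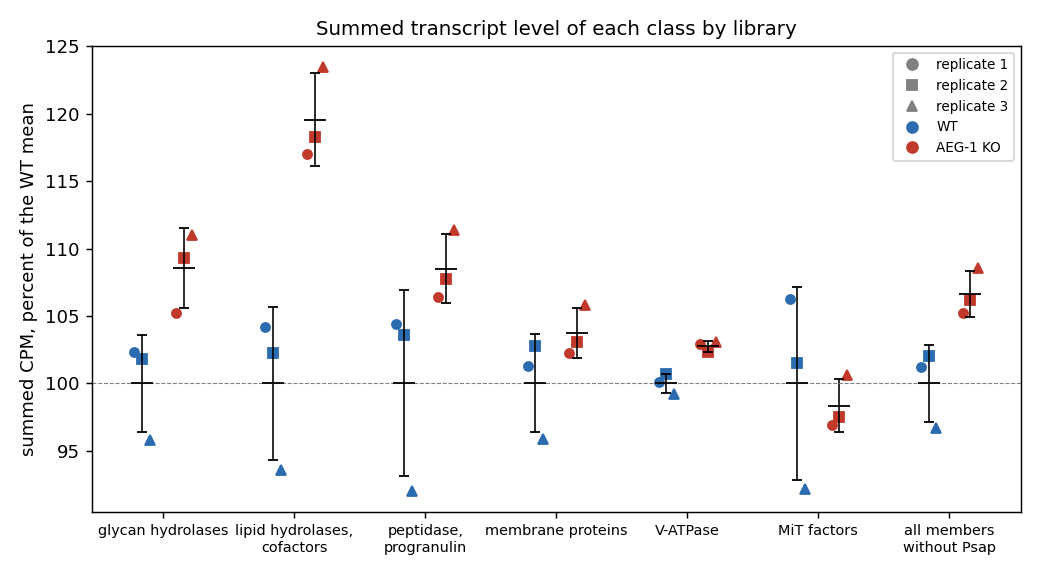
Summed CPM of each class in each library, as percent of the WT mean (symbols by replicate; dash and bar are the mean and SD, n = 3), for WT in blue and AEG-1 KO in red. The lipid class reaches 117% to 123% in AEG-1 KO and the V-ATPase 102% to 103%, and WT replicate 3 is the lowest library of each class.

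Of the 2 listed MiT transcription factors, Tfeb and Tfe3, 0 passed edgeR or DESeq2, and 0 had an unadjusted p under 0.05. The MiT factors Tfec and Mitf, from another list, passed the edgeR test and are described below. Tfeb was at 23.3, 17.7 and 15.7 CPM in WT against 19.7, 21.7 and 24.5 CPM in AEG-1 KO, overlapping, with a 95% interval of the log2 fold change of -0.09 to 0.53. Without WT replicate 1, its highest WT library, it was called (log2 fold change 0.38, QL adjusted p = 0.048). Without any other single library it was not called (log2 fold change 0.10 to 0.29, QL adjusted p from 0.35 to 0.70). Tfe3 was at 215 to 242 CPM in WT against 222 to 227 CPM in AEG-1 KO, with an interval of -0.16 to 0.07. These are transcript levels; the position of the proteins in the cell was not measured.

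Other genes of the pathway were taken from 6 further lists with 148 genes, of which 142 were tested, 11 rose and 4 fell. So 10.6% of those tested were called, against 6.35% of all tested genes. Of 27 other lysosomal enzymes 2 rose and none fell, or 7.41%, near that share of all tested genes, with a median log2 fold change of 0.10. Galc, the galactocerebrosidase, was at 89.9, 93.8 and 95.3 CPM in WT against 116, 118 and 112 CPM in AEG-1 KO (log2 fold change 0.31 ± 0.04 SE, QL adjusted p = 0.0036). Pcyox1, which oxidises prenylcysteine, had a log2 fold change of 0.22 (QL adjusted p = 0.0108) and lost its call without WT replicate 2 or AEG-1 KO replicate 2 (QL adjusted p = 0.0622 and 0.0988). All 3 AEG-1 KO libraries lay above all WT libraries in 14 of the 27 and below them in 1, where 13.9% of all tested genes lay above and 12.9% below.

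Of 26 other membrane proteins 4 rose and 2 fell, or 23.1% against 6.35% of all tested genes. Their median log2 fold change was 0.09. Laptm4b was at 12.5, 13.8 and 12.9 CPM in WT against 38.2, 41.6 and 38.7 CPM in AEG-1 KO (log2 fold change 1.59 ± 0.06 SE, QL adjusted p = 3.25e-06); its start, at 34238028 on chromosome 15, lies beside Mtdh. Cd164, a sialomucin, was at 62.6 to 64.3 CPM in WT against 83.2 to 95.2 CPM in AEG-1 KO (log2 fold change 0.47, QL adjusted p = 0.0018). Hgsnat, the membrane enzyme that acetylates heparan sulfate between the steps of Sgsh and Naglu, fell, from 134 to 138 CPM in WT to 108 to 109 CPM in AEG-1 KO (log2 fold change -0.33, QL adjusted p = 0.00159), opposite in sign to Sgsh and Naglu. Slc29a3, a nucleoside exporter, had a log2 fold change of 0.24 (QL adjusted p = 0.0164), lost without AEG-1 KO replicates 2 or 3 (QL adjusted p = 0.104 and 0.0606).

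Of 17 other genes of the proton pump and its assembly, 11 were tested, 1 rose and 1 fell. That is 18.2% of those tested, against 6.35% of all tested genes. Atp6v0a4 and Atp6v1g3 had a count of 0 in every library. Atp6v1c1, of the V1 sector, was at 230, 236 and 238 CPM in WT against 200, 210 and 196 CPM in AEG-1 KO (log2 fold change -0.21, QL adjusted p = 0.0183); its start, at 38661933 on chromosome 15, is on the chromosome of Mtdh. Atp6v0d2, a V0 subunit of macrophages and osteoclasts, was at 10.2, 10.2 and 11 CPM in WT against 12.3, 14.8 and 14.9 CPM in AEG-1 KO (log2 fold change 0.42, QL adjusted p = 0.0224). Atp6v1c1 lost its call without WT replicate 2 or AEG-1 KO replicates 1 or 3 (QL adjusted p = 0.0876, 0.0735 and 0.063), and Atp6v0d2 without WT replicate 2 or AEG-1 KO replicates 2 or 3 (QL adjusted p = 0.102, 0.115 and 0.0809).

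Among 24 genes of mTORC1 nutrient sensing and MiT factor control 3 rose, 1 fell and 20 missed the threshold. The share called was 16.7%, against 6.35% of all tested genes, and the median log2 fold change was -0.00. Tfec and Mitf, relatives of Tfeb, were among those that rose, while Tfe3, described above, did not pass the test. Tfec, a MiT factor of the macrophage lineage, was at 14.1, 15.2 and 14.9 CPM in WT against 20.2, 19.9 and 19.7 CPM in AEG-1 KO (log2 fold change 0.43 ± 0.06 SE, QL adjusted p = 0.0028). Mitf was at 58.6, 61.4 and 63.2 CPM in WT against 72, 71.7 and 67.9 CPM in AEG-1 KO (log2 fold change 0.21, QL adjusted p = 0.0389), a call lost without any library except WT replicate 3 (QL adjusted p from 0.0697 to 0.196). Rragd, a Rag GTPase that helps mTORC1 hold these factors, rose by a log2 fold change of 0.37 (QL adjusted p = 0.00664, and 0.0526 without AEG-1 KO replicate 2). Depdc5, a subunit of the complex that inactivates Rag GTPases, fell by 0.18 on the log2 scale (QL adjusted p = 0.0482), a call lost without each library in turn (QL adjusted p from 0.0536 to 0.199).

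Of 27 sorting and delivery genes 1 rose and none fell, or 3.7% against 6.35% of all tested genes, with a median log2 fold change of -0.02. It was Lyst, a regulator of lysosome size, with a log2 fold change of 0.20 (QL adjusted p = 0.0284), lost without WT replicates 1 or 2 or AEG-1 KO replicates 1 or 2 (QL adjusted p = 0.0724, 0.134, 0.0873 and 0.184). Of 27 autophagy genes 0 passed the edgeR test and 1 passed DESeq2; 12 had an unadjusted p under 0.05 in edgeR, 10 of them higher, and the median was 0.07. The autophagy receptor gene Optn and the kinase gene Ulk2 had log2 fold changes of -0.22 and 0.16 (QL adjusted p = 0.0505 and 0.0621).

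**Figure D5:**
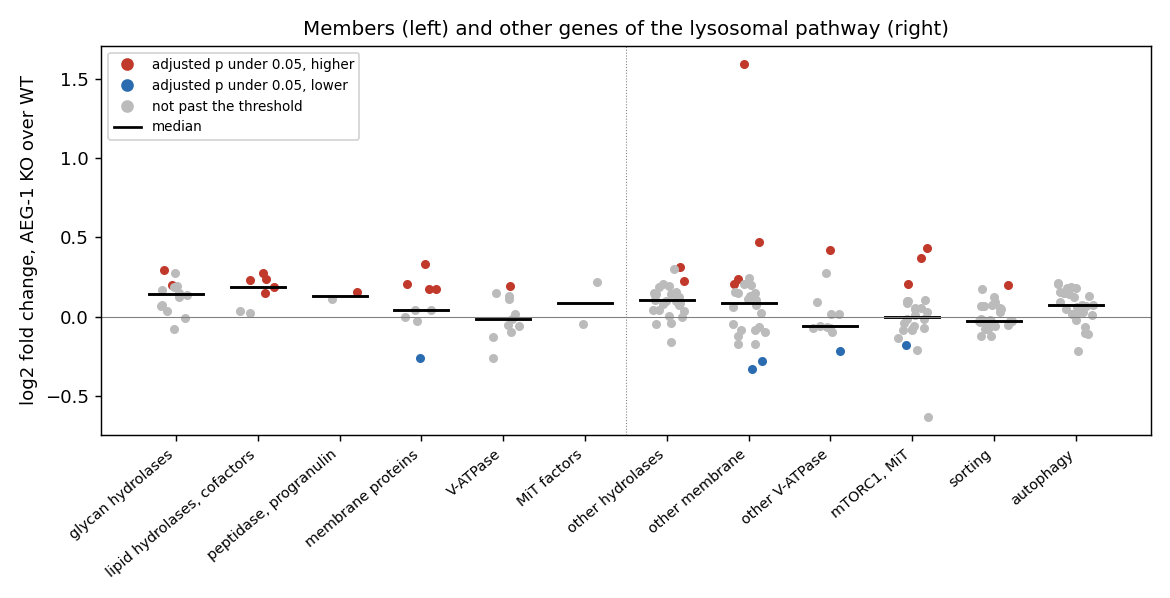
Log2 fold change of AEG-1 KO over WT for each tested gene (points; red higher and blue lower at an QL adjusted p under 0.05, grey otherwise) with the median of each list (line), for the 6 classes of the 45 genes on the left and 6 lists of other pathway genes on the right. Medians run from -0.06 in the other V-ATPase genes to 0.19 in the lipid class, and Laptm4b stands apart at 1.59.

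Markers of other cells differed between the same libraries, and their part in these results was not tested. Over all tested genes, 3.31% rose and 3.04% fell. Of 14 macrophage markers 4 rose and 1 fell; they summed to 19720 to 20100 CPM in WT against 20660 to 20970 CPM in AEG-1 KO. Of 10 tested monocyte and progenitor markers, among 14 listed, 4 rose and none fell, with sums of 100 to 108 CPM in WT against 124 to 131 CPM in AEG-1 KO. Of 12 neutrophil markers 6 rose and 1 fell, with sums of 450 to 459 and 507 to 555 CPM. Of 11 tested stromal and endothelial markers, among 14, 6 rose and none fell, but their sums were only 15.8 to 18.1 and 23.4 to 25 CPM. Osteoclast markers, with 1 rise and 2 falls among 7 tested of 10, summed to 346 to 376 and 322 to 330 CPM. Lymphocyte markers (5 tested of 10) and dendritic cell markers (6 tested of 9) held 0 edgeR calls, with 3 and 0 at an unadjusted p under 0.05. Their sums overlapped, at 47.4 to 50.8 and 46.6 to 52.9 CPM and at 257 to 339 and 270 to 329 CPM. No marker of these 7 lists was at a count of 0 in every library.

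Some of the values are uncertain because of how reads may have been assigned. The strand setting of the counting is not given in the sources used here, and Hexa, Sgsh, Idua, Ppt1, Grn, Lamp1, Npc1, Atp6v0b, Atp6v1e1 and Atp6v1h share exon sequence with a gene on the opposite strand, as does Optn. Glb1 overlaps Tmppe on the same strand. Besides Cd63 and Atp6v0c, near-identical stretches in genes that do not overlap them were found for Lamp2 (23 genes), Mcoln1 (6), Man2b1 (5), Atp6v1a, Atp6v1b2 and Atp6ap2 (1 each), Slc29a3 (1), and for 1 of the genes matched to each of Npc1 and Atp6v1h.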

How the data were processed

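Total RNA was sequenced on an Illumina HiSeq3000 after TruSeq library preparation, per the labels' protocols. Per the file headers, the authors deposited unnormalized counts of reads for each Ensembl identifier in 1 column per library. The submitters' processing notes name edgeR 3.18.1, featureCounts 1.4.6-p4, Subread, cutadapt 1.9 and FastQC 0.11.2, with GRCm38 and mm10 as builds and no roles. How strand and multiply matching reads were handled, and with which annotation release, is not given in the sources used here. Symbols, positions and exon lengths came from GENCODE mouse release M21 (GRCm38), which matched 46488 of 46983 identifiers.

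Genes passing filterByExpr (minimum count 10) received TMM factors and entered the test of edgeR 4.0.16 (glmQLFit, legacy false) in R 4.3.3, genotype being the only term, with Benjamini-Hochberg adjustment over all 16115 genes. The SE divides the size of a log2 fold change by the root of its F. Intervals use the fit's degrees of freedom. Near-identical copies are other genes with at least 95% identity over 100 nucleotides (BLAST+ 2.17.0). Replicates of a genotype differed by more than sampling noise (chi-square per degree of freedom 5.58 to 19.3). The fit was also run on simulated data, and no result given here rests on that run. DESeq2 1.42.0, limma-voom (limma 3.58.1), other scalings and filters, a length and GC trend (mgcv 1.9.3), a replicate block and leaving out each library were alternatives. The genes, lists and the naming rule (Mtdh, the 45 genes, and up to 4 called or 2 uncalled genes per pathway list with the smallest p) were chosen with earlier results of these data known.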

Additional observations from a re-analysis of the deposited data

How the results depend on the processing

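Among the 14 called genes the sign was the same in all 17 alternatives, and Scarb2 kept its call in each. The other 13 lost theirs without at least 1 library, and 5 (Asah1, Npc2, Tpp1, Lamp2 and Atp6ap2) under upper-quartile scaling, where 9 genes were called, 8 of them higher. Once a smooth trend across exon length and GC was taken out, 23 of the 45 were called, 20 higher and 3 lower. The 3 lower were Cd63, Atp6v1d and Atp6v1e1. Over all genes that fit called 2326, 997 higher and 1329 lower, with 43 pathway genes among them. The cause was not tested. Leaving out 1 library gave 380 to 1094 genes called, 184 to 519 higher and 196 to 575 lower, 1 to 9 of the 45, 1 to 8 higher and 0 to 1 lower, a median log2 fold change of 0.0885 to 0.141, and 6 to 16 pathway genes.

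The replicate numbers did not pair the samples: deviations from the group means correlated at -0.27, -0.17 and -0.25 for numbers 1 to 3. With the replicate number as a block 227 genes were called, 113 higher and 114 lower, of the 45 genes 1 (Scarb2), higher, and 0 lower (1 lower at an unadjusted p under 0.05; DESeq2 without the block calls 1 lower), and 3 pathway genes. With block and trend together 6 of the 45 were called, 6 higher and 0 lower (3 lower at an unadjusted p under 0.05).

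Signs changed in 6 of the 31 uncalled genes. Without 1 library, log2 fold changes ran from -0.0802 to 0.119 in Gaa, -0.0544 to 0.0268 in Ids, -0.0368 to 0.0603 in Smpd1, -0.0274 to 0.0878 in Cd68, -0.071 to 0.0257 in Laptm5 and -0.024 to 0.0482 in Atp6v1h. With the trend removed, Gaa was at -0.00936 and Atp6v1h at -0.0769, and with the block as well at -0.00923 and -0.0767. Laptm5 was at 3.59e-06 without scaling factors and 3.03e-06 with the block. The smallest called change was 0.15 on the log2 scale (Npc2).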
